A study of Homo sapiens with 12 samples.

Results

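The messenger RNAs of 9 genes of ether lipid synthesis and glycerol phosphorylation were followed in 2 human B-lineage leukaemia lines, 9 of 59611 symbols in the count table. Of these, GNPAT, AGPS, FAR1, FAR2 and SELENOI encode enzymes of the ether lipid route. PEX5 and PEX7 encode the receptors that bring GNPAT and AGPS into the peroxisome, and GK and GK5 are of the glycerol kinase family. AGPS was chosen by its counts in 697, nearly absent from control and abundant in edited libraries, and GK5 was chosen by its opposite change in the lines, so these patterns are given as descriptions with no test. The other 7 genes were chosen for their roles.

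Ether lipids carry a fatty alcohol on the glycerol backbone through an ether bond in place of an ester bond, and plasmalogens, their commonest form in animal cells, are abundant in brain, heart and white blood cells. Synthesis starts inside the peroxisome, where GNPAT acylates dihydroxyacetone phosphate and AGPS then exchanges the acyl chain for a fatty alcohol supplied by FAR1 or FAR2. PEX5 binds the C-terminal targeting signal carried by GNPAT, and PEX7 binds the N-terminal signal carried by AGPS and relies on PEX5 to dock. The product leaves the peroxisome and gains its head group in the endoplasmic reticulum, where SELENOI adds phosphoethanolamine. Glycerol kinase, encoded by GK, makes glycerol 3-phosphate from free glycerol, and GK5 is a related gene.

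Poly-A RNA was sequenced from 4 groups of 3 libraries each. The first was 697 cells of clone BM_B, which received a guide RNA against SETD2 and is labelled heterozygous KO. The second was 697 cells with an empty guide vector, labelled SETD2 WT. The next was KOPN-8 cells, a line with a KMT2A fusion, of clone BA, with the same kind of guide and the same heterozygous KO label, and the last was KOPN-8 cells with the empty vector, labelled SETD2 WT. Cells labelled heterozygous KO are called edited below and empty-vector cells control. SETD2 encodes the main enzyme that writes trimethylation of H3K36. Each edited group is 1 clone, and whether a control is also 1 clone is not given in the sources used here, so a difference cannot be told apart from one between cell isolates. The 3 libraries of a group are labelled as biological replicates, with no word on separate cultures, so p-values measure only the spread between these libraries.

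Library totals ran from 10378769 to 18278662 counts, at which 3 counts, the limit that a count of 0 allows in 1 library, came to 0.164 to 0.289 CPM (counts scaled to library size). Such limits and counting intervals cover counting error only. SETD2 averaged 219 ± 17.2 CPM in edited 697 against 161 ± 6.96 CPM in control 697 (SD, n = 3 each), and 158 ± 6.05 CPM in edited KOPN-8 against 169 ± 9.23 CPM in control KOPN-8. It was called higher in edited 697 (log2 fold change 0.44; edgeR quasi-likelihood with Benjamini-Hochberg adjusted p = 0.000103), against the direction of a KO label, and was not called in edited KOPN-8 (-0.10; adjusted p = 0.309). The difference between the lines was -0.54 (adjusted p = 0.000225). A count over the whole gene is no check of the genotype. All 9 B-lineage markers examined, PAX5 and CD79A among them, averaged 94.7 CPM or more in every group. The 7 markers of other cell types averaged 3.20 CPM or less, with 4 of them at 0 counts in each 697 group and 3 in each KOPN-8 group. Their summed level was 2.72 to 4.09 CPM in edited and 1.90 to 3.24 CPM in control 697, and 3.07 to 4.54 CPM in edited and 1.30 to 2.08 CPM in control KOPN-8, and the part of this in any result was not tested. HOXA9, a target of KMT2A fusions, had 0 counts in 697 and 119 and 147 CPM in edited and control KOPN-8. In bulk RNA, fewer cells that express a gene and less RNA per cell cannot be told apart.

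The AGPS promoter is shown because AGPS differed most in CPM among the 9 genes. It lies at chr2:177392523-177392822 of GRCh38.p14, on the plus strand, from 250 bases before to 50 bases after the start in RefSeq. CpG pairs are in capitals.
AGPS promoter: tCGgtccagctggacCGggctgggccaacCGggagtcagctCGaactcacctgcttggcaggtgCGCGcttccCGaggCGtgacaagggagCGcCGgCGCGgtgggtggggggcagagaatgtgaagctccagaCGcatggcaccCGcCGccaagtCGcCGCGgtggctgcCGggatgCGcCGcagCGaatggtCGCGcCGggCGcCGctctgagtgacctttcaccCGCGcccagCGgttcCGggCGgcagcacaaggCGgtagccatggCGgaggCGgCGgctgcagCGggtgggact
The window held 37 CpG pairs, against a median of 14 over 35116 RefSeq promoters of the same length, and 11.3% of those promoters held at least as many. At least 1 CpG was present in 96% of them. This describes the letters only, since methylation was not measured here. In GENCODE, AC019080.1, a non-coding gene on the minus strand, starts at base 169 of this window.

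GNPAT was the most even of the genes between edited and control libraries. It stood at 126, 129 and 134 CPM in edited 697 and 137, 132 and 134 CPM in control 697. In KOPN-8 it stood at 98.9, 97.3 and 89.4 CPM in edited and 95.9, 96.9 and 93.9 CPM in control libraries. The groups overlapped in both lines. The log2 fold change was -0.05 in 697 (95% interval -0.18 to 0.08; edgeR quasi-likelihood with Benjamini-Hochberg adjusted p = 0.689) and -0.01 in KOPN-8 (-0.14 to 0.13; adjusted p = 0.993), and the sign of the KOPN-8 value turned under several settings.

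AGPS, which makes the ether bond itself, was on in 3 of the 4 groups. Edited 697 libraries had 49.3, 45.1 and 51.5 CPM, against 0.719, 0.605 and 0.377 CPM in control 697. The control values rest on 11, 10 and 5 counts, 26 in all, so the gene was detected in each control library at a low level. The edited libraries, with 1802 counts, stood 83.8 times as high (95% counting interval 57.0 to 129), and the groups did not overlap. AGPS was chosen for this difference, and 9.45% of the 15218 genes tested were called in this comparison (1438 genes, or 2319 with libraries paired by replicate number), 4.85% higher and 4.60% lower, and 24.1% had groups that did not overlap.

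In KOPN-8 AGPS was abundant in both groups and fell in the edited clone, a change that its choice did not use. It had 234, 228 and 204 CPM in edited KOPN-8, against 255, 275 and 269 CPM in control KOPN-8. Every edited library was below every control library, as the plot of the 9 genes by library shows. Its log2 fold change of -0.26 was called (SE 0.0696; edgeR quasi-likelihood with Benjamini-Hochberg adjusted p = 0.0056). The call held with each of the 12 libraries left out in turn, at an adjusted p of up to 0.0446. In this comparison 28.7% of all genes were called, 11.5% higher and 17.2% lower, and 45.1% had groups that did not overlap.

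**Figure D1:**
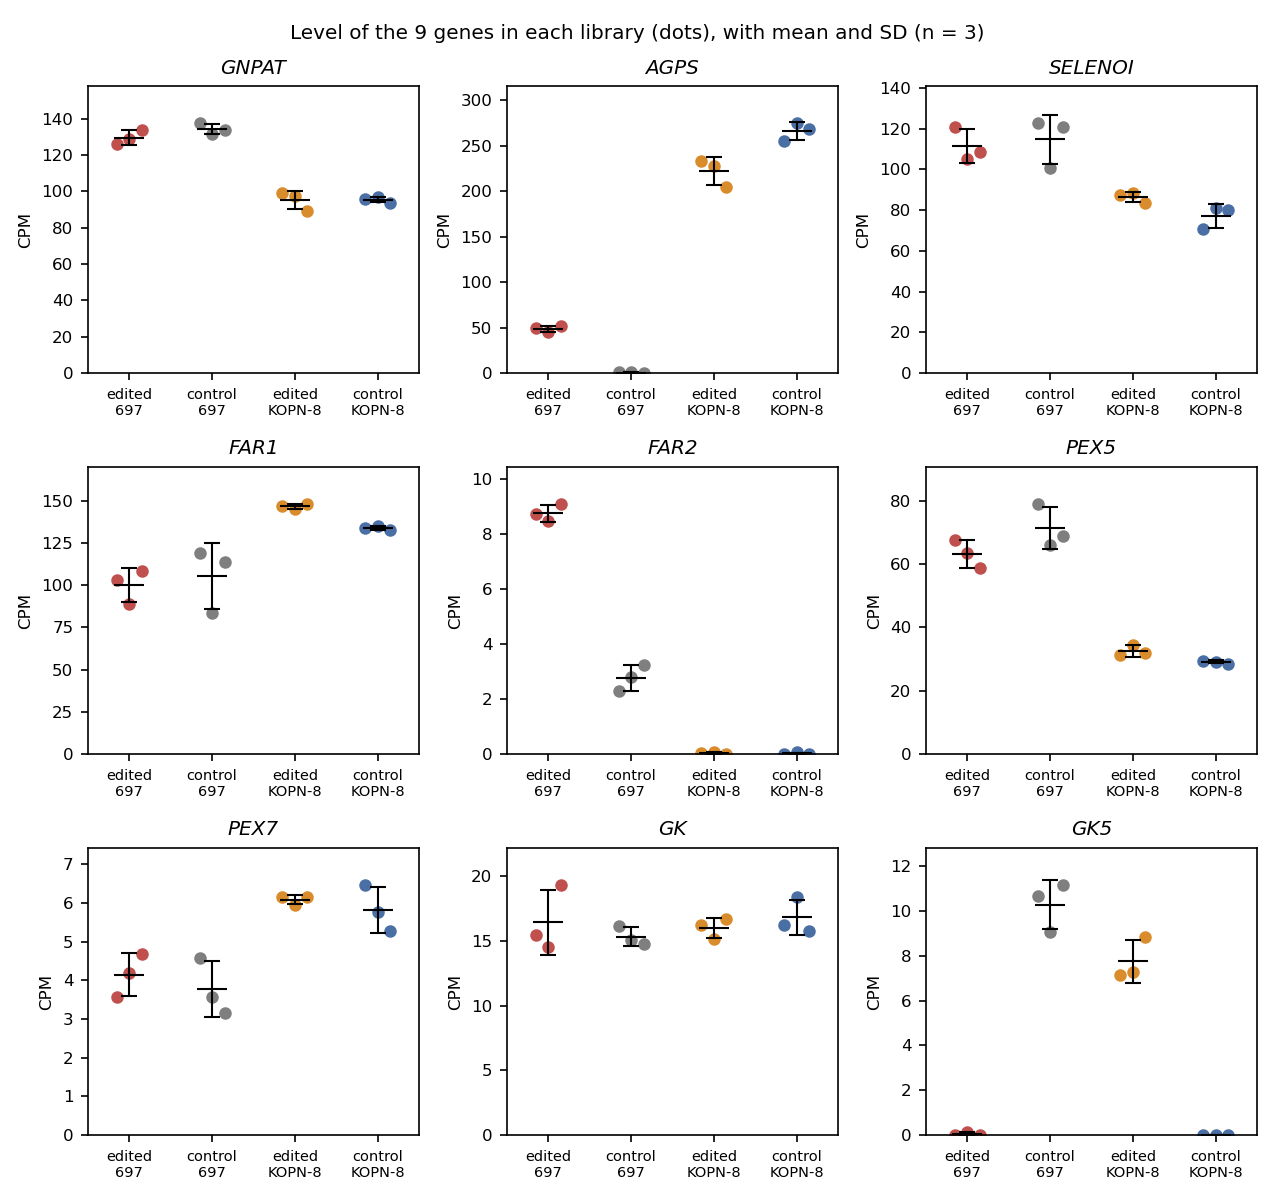
Level in CPM (y axis, linear and starting at 0) of each of the 9 genes in each library (dots), with the mean and SD over 3 libraries (bars), for edited 697, control 697, edited KOPN-8 and control KOPN-8. AGPS is near 0 in control 697 alone, FAR2 near 0 in both KOPN-8 groups, and GK5 near 0 in edited 697 and at 0 in control KOPN-8, while GK lies between 14.6 and 19.3 CPM in all 12 libraries.

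The paired fatty alcohol genes differed from each other. FAR1, the widely expressed reductase, stood at 103, 89.1 and 109 CPM in edited 697 and 119, 83.3 and 114 CPM in control 697, with overlap and wide spread. In KOPN-8 it stood at 147, 145 and 148 CPM in edited and 134, 135 and 133 CPM in control libraries, which did not overlap. The log2 fold change was -0.07 in 697 (95% interval -0.28 to 0.14) and 0.13 in KOPN-8 (-0.07 to 0.34), and neither was called (edgeR quasi-likelihood with Benjamini-Hochberg adjusted p = 0.737 and 0.354). Fitted on the KOPN-8 libraries alone, the KOPN-8 change was called, at 0.14 with an adjusted p of 0.034.

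FAR2, the second reductase, rose in edited 697. It had 8.71, 8.47 and 9.07 CPM in edited 697, against 2.29, 2.78 and 3.24 CPM in control 697. Its log2 fold change of 1.66 was called (SE 0.209; edgeR quasi-likelihood with Benjamini-Hochberg adjusted p = 4.62e-06), and the call held with each library left out. In KOPN-8 the gene was all but absent, with 2 counts over the edited libraries and 1 over the controls, so no fold is given. FAR2 shares its locus with ERGIC2 and 5 antisense genes on the opposite strand, and the sources used here do not say whether counting used strand, so reads of FAR2 and of these genes may not have been told apart. ERGIC2 averaged 44.3 and 43.2 CPM in edited and control 697 and 44.1 and 45.2 CPM in edited and control KOPN-8. Of the antisense genes, AC009318.2 averaged 1.07 and 0.409 CPM in edited and control 697, higher where FAR2 was higher, and AC009318.1 averaged 1.47 and 1.82 CPM. The other 3 averaged 0.213 CPM or less in both 697 groups. The part of these genes in the FAR2 change was not tested.

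The import receptors changed little within each line. PEX5 had 67.4, 63.5 and 58.6 CPM in edited 697 and 78.8, 66.1 and 68.9 CPM in control 697. In KOPN-8 it had 31.2, 34.5 and 31.9 CPM in edited and 29.5, 29.2 and 28.5 CPM in control libraries. The 697 groups overlapped by 1 library and the KOPN-8 groups did not overlap. Neither change was called, at -0.17 in 697 (95% interval -0.34 to -0.01, which is not adjusted; edgeR quasi-likelihood with Benjamini-Hochberg adjusted p = 0.201) and 0.16 in KOPN-8 (-0.02 to 0.34; adjusted p = 0.176). The difference between the lines was called, at 0.33 on the log2 scale (SE 0.117; adjusted p = 0.0476), where 19.5% of all genes were called, 7.46% with the KOPN-8 change higher. That call was lost when any of 9 libraries was left out, at an adjusted p of 0.0509 to 0.122: control 697 replicate 1, edited 697 replicates 2 and 3 and all 6 KOPN-8 libraries. It was also lost without the filter on low counts, at 0.0559.

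PEX7, the receptor for AGPS, was a low transcript that was not called in either line. It stood at 3.57, 4.20 and 4.68 CPM in edited 697 and 4.58, 3.57 and 3.16 CPM in control 697. In KOPN-8 it stood at 6.15, 5.96 and 6.15 CPM in edited and 6.46, 5.77 and 5.27 CPM in control libraries. All these groups overlapped. The log2 fold changes, 0.12 in 697 (95% interval -0.27 to 0.52) and 0.07 in KOPN-8 (-0.27 to 0.41), were not called by edgeR's quasi-likelihood test (Benjamini-Hochberg adjusted p = 0.774 and 0.814).

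SELENOI, which adds the ethanolamine head group, had 121, 105 and 109 CPM in edited 697 and 123, 101 and 121 CPM in control 697. In KOPN-8 it had 87.3, 88.5 and 83.7 CPM in edited and 70.6, 81.0 and 79.8 CPM in control libraries. The edited KOPN-8 values were all above the control values, and the 697 values were mixed. The log2 fold change was -0.04 in 697 (95% interval -0.20 to 0.13) and 0.16 in KOPN-8 (-0.0035 to 0.33, not adjusted), and neither was called (edgeR quasi-likelihood with Benjamini-Hochberg adjusted p = 0.839 and 0.141). The KOPN-8 change was called when the fit held the KOPN-8 libraries alone (adjusted p = 0.0358) or took the replicate number as a block (adjusted p = 0.0386).

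GK held its level in all 12 libraries. It had 15.5, 14.6 and 19.3 CPM in edited 697 and 16.2, 15.1 and 14.8 CPM in control 697. In KOPN-8 it had 16.2, 15.1 and 16.7 CPM in edited and 16.2, 18.4 and 15.8 CPM in control libraries. The groups overlapped in both lines. The log2 fold changes were 0.09 in 697 (95% interval -0.15 to 0.34) and -0.07 in KOPN-8 (-0.30 to 0.16), with adjusted p of 0.711 and 0.715 (edgeR quasi-likelihood with Benjamini-Hochberg). GK has a near-identical retrocopy, listed as GK3P, so its counts are uncertain where reads fit both.

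GK5 was on in 1 group of each line, and not in the same one. In 697 it had 0, 2 and 0 counts in edited libraries, against 10.7, 9.08 and 11.1 CPM in control libraries (461 counts). The control level was 191 times the edited level (95% counting interval 52.5 to 1578). In KOPN-8 it had 7.15, 7.28 and 8.87 CPM in edited libraries (394 counts), against 0 counts in every control library. The edited level was at least 128-fold higher, set against 3 counts over the 3 control libraries. GK5 was chosen for this pattern, so neither difference was tested.

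Few genes were off in 1 group of a line and on in the other. Taking off as a mean under 1 CPM and on as at least 5 CPM, 34 genes (0.223%) switched in 697, 11 of them on in the edited clone alone and 23 in the control alone. In KOPN-8 65 genes (0.427%) switched, 21 on in the edited clone alone and 44 in the control alone. GK5 was the 1 gene that was off in edited 697 and in control KOPN-8 and on in the other groups, and 0 genes had the opposite pattern. AGPS was 1 of 6 genes off in control 697 and on in the other 3 groups. Among the others were CCDC125, PRKCB, SMIM24 and TRIM4, named after their values were seen. These counts describe the table and carry no test.

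**Figure D2:**
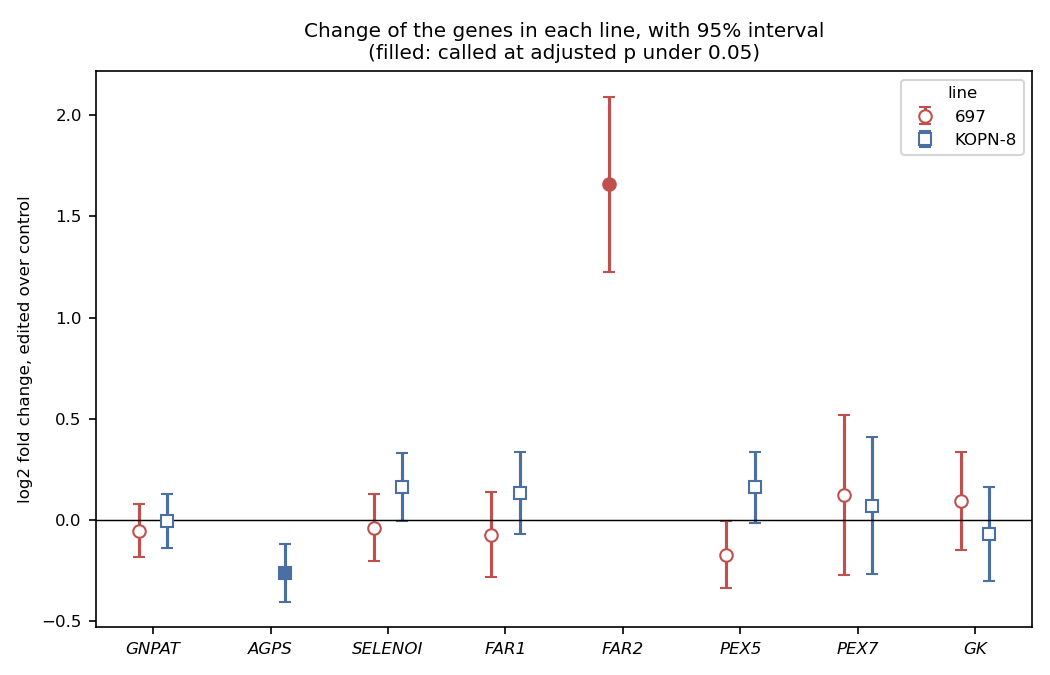
Log2 fold change of edited over control (y axis) with its 95% interval (bars, not adjusted) for the members that were tested, in 697 (circles) and KOPN-8 (squares), with filled symbols where the gene was called. FAR2 in 697, at 1.66, and AGPS in KOPN-8, at -0.26, are filled, and the other symbols are open. AGPS in 697, GK5 and FAR2 in KOPN-8 are not drawn.

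All 9 genes passed the filter on low counts, FAR2 and GK5 only through groups where they were high. Among the 7 chosen for their roles, 1 was called higher in edited 697, 0 lower and 6 not called, where 9.45% of all genes were called. FAR2 is left out of the counts that involve KOPN-8, where it had too few counts for a call. With AGPS added in KOPN-8, 0 of 7 were called higher, 1 lower and 6 not called, where 28.7% of all genes were called. The KOPN-8 groups did not overlap for 4 of the 7, where 45.1% of all genes had groups that did not overlap. Of the 6 genes counted for a difference between the lines, 1 was called, where 19.5% of all genes were.

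The control libraries of the lines also differed from each other at baseline. Of 6 genes chosen for their roles, without FAR2, 2 were higher in control KOPN-8 than in control 697, 3 lower and 1 not called, where 73.3% of all genes were called, 36.6% higher and 36.7% lower, and 76.3% had groups that did not overlap. FAR1 (log2 fold change 0.35) and PEX7 (0.62) were higher in control KOPN-8, and GNPAT (-0.49), SELENOI (-0.57) and PEX5 (-1.30) were lower, with adjusted p from 7.33e-13 to 0.00374 (edgeR quasi-likelihood with Benjamini-Hochberg). GK, at 0.13, was not called (adjusted p = 0.295). FAR2 had 1 count in control KOPN-8 and 124 in control 697. AGPS averaged 266 ± 10.0 CPM in control KOPN-8 and 0.567 ± 0.174 CPM in control 697 (SD, n = 3 each), which was not tested.

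Levels can be set between genes only per length, here as CPM per kilobase of annotated exon. The length joins all annotated exons of a gene, which may differ from the transcripts in these cells, and no other length was tried. GNPAT was highest in edited 697 at 39.7, in control 697 at 41.2 and in edited KOPN-8 at 29.2 CPM per kilobase. In control KOPN-8 AGPS, at 29.7, and GNPAT, at 29.3 CPM per kilobase, overlapped. FAR1 came next in both 697 groups, at 13.4 in edited and 14.1 in control, close to SELENOI at 13.0 and 13.4 CPM per kilobase. In KOPN-8 FAR1 had 19.6 in edited and 17.8 CPM per kilobase in control, under AGPS. GK and PEX7 lay between 2.05 and 3.32 CPM per kilobase in all 4 groups.

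The ratio of AGPS to GNPAT per length sets the messenger RNAs for consecutive steps side by side, and it depends on the lengths used. It was 0.136 ± 0.00792 in edited 697 and 0.00153 ± 0.000457 in control 697 (SD, n = 3 each). In KOPN-8 it was 0.860, 0.851 and 0.831 in edited and 0.968, 1.03 and 1.04 in control libraries. Every edited 697 value lay below every KOPN-8 value. The ratio of GK5 to GK per length was 0.296 ± 0.0340 in control 697 and 0.214 ± 0.0200 in edited KOPN-8, the groups where GK5 was on. FAR2 stood at 0.121 ± 0.00894 of FAR1 per length in edited 697 and 0.0374 ± 0.0100 in control 697. These ratios contain the values that chose AGPS and GK5 and were not tested.

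Among the genes beside AGPS on chromosome 2, AC019080.1 was the one called in 697. Of 12 neighbours with at least 1 CPM in some group, 1 was called higher in edited 697, 0 lower and 11 not called. Over all genes 9.45% were called in this comparison. The 11 include AC009948.2, which had 0 counts in 697. AC019080.1, which starts inside the promoter shown above, had 6, 10 and 8 counts in edited 697 and 0 counts in every control library. It was at least 9.68-fold higher (edgeR quasi-likelihood with Benjamini-Hochberg adjusted p = 0.000108). It overlaps AGPS, so its reads and those of AGPS cannot be told apart if counting ignored strand. In KOPN-8 AC019080.1 averaged 4.40 ± 0.205 CPM in edited and 4.75 ± 0.748 CPM in control libraries (SD, n = 3 each) and was not called. AC019080.5, a non-coding gene and the neighbour just before AGPS, had 1 count in each edited 697 library. It had 0 counts in every control 697 library, and these are too few for a call. In KOPN-8 AC019080.5 averaged 0.924 ± 0.234 CPM in edited and 1.53 ± 0.239 CPM in control libraries and was not called.

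NFE2L2, on the same side, encodes the NRF2 transcription factor. It averaged 50.6 ± 9.41 CPM in edited and 48.9 ± 3.84 CPM in control 697 (SD, n = 3 each; edgeR quasi-likelihood with Benjamini-Hochberg adjusted p = 0.867). TTC30B, which encodes a ciliary transport protein and follows AGPS, averaged 14.2 ± 1.48 CPM in edited and 16.2 ± 0.757 CPM in control 697 and was not called. In KOPN-8 TTC30B rose, with 10.0, 11.9 and 11.4 CPM in edited and 5.42, 5.01 and 6.79 CPM in control libraries (log2 fold change 0.94; adjusted p = 9.60e-06). NFE2L2 and TTC30B both overlap AGPS from the opposite strand, so their reads and those of AGPS may not have been told apart. The part of this overlap in the TTC30B and AGPS changes was not tested. In all, 2 of the 12 neighbours were called higher in KOPN-8, 1 lower and 9 not called, where 28.7% of all genes were called. Over all genes 11.5% were called higher and 17.2% lower. The others called were AC009948.2, at 56 counts against 9, and MTX2, at -0.27. AC009948.2 passed the filter on low counts only through edited KOPN-8, where it was high. The direction of its call was thus set in advance, and it is counted among the 2 called higher. The MTX2 call was lost without control KOPN-8 replicates 1 or 3 or edited KOPN-8 replicates 2 or 3, at an adjusted p of 0.0661 to 0.152, and without the filter, at 0.0506.

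GK5 lies on chromosome 3 between TFDP2, a dimerization partner of E2F factors, and XRN1, an exonuclease. TFDP2 moved with GK5 in KOPN-8, at 231, 179 and 269 counts in edited against 0, 2 and 0 counts in control libraries, a ratio of 330 (95% counting interval 90.9 to 2727; edgeR quasi-likelihood with Benjamini-Hochberg adjusted p = 3.75e-16). In 697, where GK5 was off in the edited clone, TFDP2 averaged 120 ± 4.80 CPM in edited and 127 ± 2.71 CPM in control libraries and was not called (adjusted p = 0.595). XRN1, on the other side, averaged 68.1 ± 7.32 CPM in edited and 67.4 ± 3.28 CPM in control 697, and 106 ± 2.67 CPM in edited and 101 ± 3.03 CPM in control KOPN-8. It was not called in either line.

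**Figure D3:**
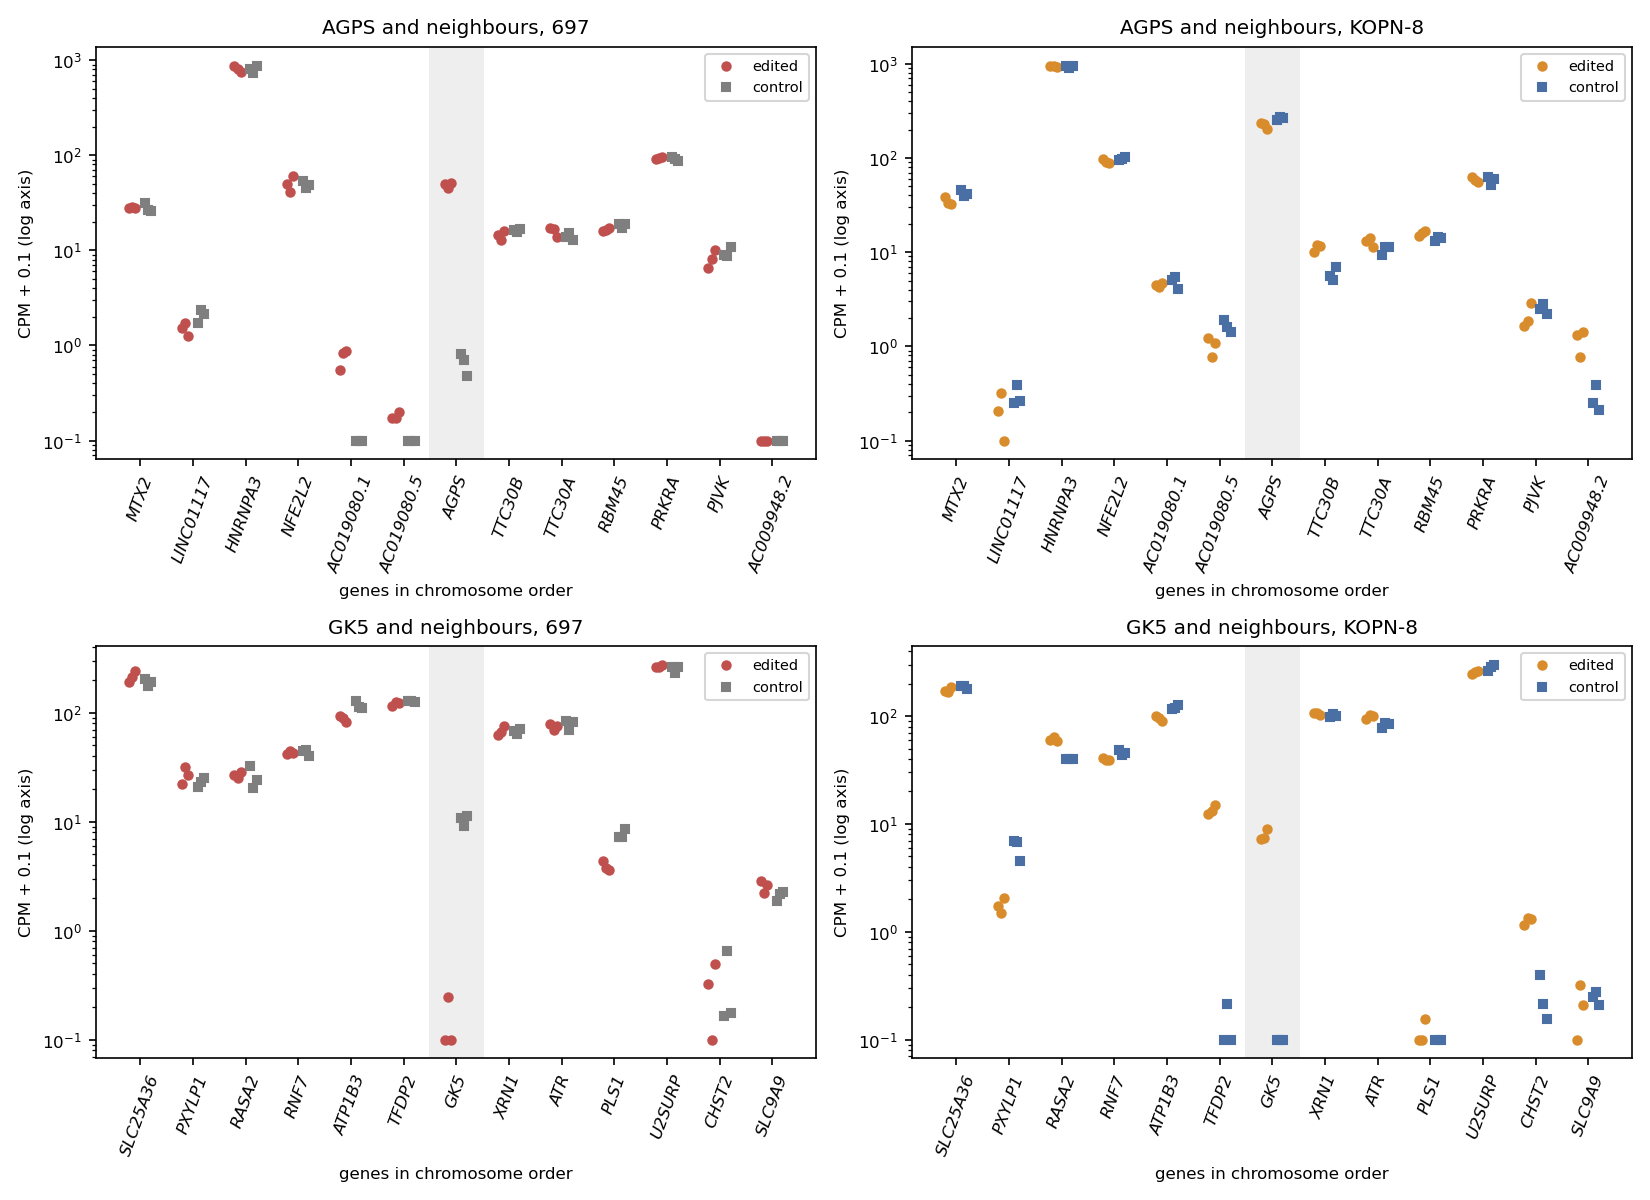
Level in each library as CPM + 0.1 (y axis, log scale) of AGPS (top) and GK5 (bottom), shaded, and of 6 genes on each side in chromosome order (x axis, not to distance), in 697 (left) and KOPN-8 (right), with edited libraries as circles and control libraries as squares. In 697 most neighbours have circles and squares at one height around the separated AGPS and GK5, and in KOPN-8 TFDP2 is separated together with GK5.

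Of the 12 neighbours of GK5, 0 were higher in edited 697, 2 lower and 10 not called, where 9.45% of all genes were called. ATP1B3, which encodes a subunit of the sodium pump, fell in both edited clones, with a log2 fold change of -0.40 in 697 (edgeR quasi-likelihood with Benjamini-Hochberg adjusted p = 0.000555) and -0.35 in KOPN-8 (adjusted p = 0.000571). PLS1, an actin-bundling protein gene, fell to 3.81 ± 0.383 CPM in edited 697, against 7.61 ± 0.716 CPM in control 697 (SD, n = 3 each), and had 1 count in KOPN-8. In KOPN-8 4 neighbours were called higher, 3 lower and 5 not called, where 11.5% of all genes were called higher and 17.2% lower. Beside TFDP2, those higher were RASA2, a Ras GTPase activator gene (0.59), CHST2 (59 counts against 7) and ATR, a checkpoint kinase gene (0.25). CHST2 passed the filter on low counts only through edited KOPN-8, where it was high. The direction of its call was thus set in advance, and it is counted among the 4 called higher. Those lower were PXYLP1, a xylose phosphatase gene (-1.82), ATP1B3 and RNF7 (-0.21). The ATR call was lost without control KOPN-8 replicate 1 or edited KOPN-8 replicate 2, at an adjusted p of 0.106 and 0.0691. That of RNF7 was lost when any of 7 libraries was left out, at 0.0553 to 0.166: control 697 replicate 3, edited 697 replicate 2, control KOPN-8 replicates 1 and 3 and all 3 edited KOPN-8 replicates. It was also lost with upper-quartile scaling, at 0.0555, and without the filter, at 0.139.

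The genes whose levels were most like those of AGPS over the 12 libraries were found by Pearson's r of log2(CPM + 0.5) among 11598 genes. Among the 5 most alike were CREG1 (r = 0.996), FRG1 (0.995), TCIRG1 (0.994) and GALNT12 (0.994). The 12 points fall into 4 groups, so r mostly follows the group means, and it is a description. TCIRG1, a proton pump subunit gene, averaged 26.2 ± 4.90 CPM in edited and 2.59 ± 0.625 CPM in control 697, and 82.4 ± 5.36 CPM in edited and 75.4 ± 1.89 CPM in control KOPN-8 (SD, n = 3 each). For GK5 the most alike were PCDHGC3 (0.937), FIZ1 (0.911), RABGAP1 (0.902), E2F4 (0.894) and MED17 (0.877). PCDHGC3, a protocadherin, averaged 20.8 ± 3.04 CPM in edited and 44.8 ± 5.75 CPM in control 697, and 52.3 ± 2.23 CPM in edited and 25.1 ± 1.93 CPM in control KOPN-8, so none of its groups was off.

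Among other genes of the ether lipid route, 2 were called in edited 697 and 9 in edited KOPN-8. Of 19 listed, 15 were tested. In edited 697 1 rose, 1 fell and 13 were not called, where 9.45% of all genes were called, with a median log2 fold change of 0.05 against 0.00 over all genes. In edited KOPN-8 3 rose, 6 fell and 6 were not called, where 28.7% of all genes were called, 11.5% higher and 17.2% lower, with a median of -0.07 against 0.00. The 6 that fell include TMEM86A, which passed the filter on low counts only through control KOPN-8. PCYT2, which makes the activated ethanolamine that SELENOI uses, fell to 41.8 ± 1.96 CPM in edited 697, against 60.4 ± 9.03 CPM in control 697 (SD, n = 3 each; log2 fold change -0.53; edgeR quasi-likelihood with Benjamini-Hochberg adjusted p = 0.000213). LPCAT1, an acyltransferase that can also make platelet-activating factor, rose by 0.41 on the log2 scale in edited 697 (adjusted p = 0.00143).

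In edited KOPN-8 the same PCYT2 rose and LPCAT1 fell. PCYT2 averaged 89.9 ± 2.61 CPM in edited and 77.0 ± 3.14 CPM in control KOPN-8 (SD, n = 3 each; log2 fold change 0.22; edgeR quasi-likelihood with Benjamini-Hochberg adjusted p = 0.0453). LPCAT1 had a log2 fold change of -0.21 (adjusted p = 0.0378). The PCYT2 call in KOPN-8 was lost when any of the 6 KOPN-8 libraries was left out, at an adjusted p of 0.0546 to 0.149, and by DESeq2, at 0.0513. The LPCAT1 call was lost without control 697 replicate 3, edited 697 replicate 2, control KOPN-8 replicates 2 or 3 or edited KOPN-8 replicates 1 or 3, at 0.0535 to 0.160, and with upper-quartile scaling or no filter, at 0.0509 and 0.0600. The differences between the lines held with each of the 12 libraries left out, at 0.75 for PCYT2 (adjusted p = 5.69e-05) and -0.62 for LPCAT1 (adjusted p = 0.000196).

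Another 7 route genes were called in edited KOPN-8, 2 higher and 5 lower. ALDH3A2, the fatty aldehyde dehydrogenase, fell to 6.73, 5.15 and 4.54 CPM in edited KOPN-8, against 13.4, 11.6 and 13.2 CPM in control KOPN-8 (log2 fold change -1.21; edgeR quasi-likelihood with Benjamini-Hochberg adjusted p = 1.34e-07). TMEM86A, a lysoplasmalogenase gene, fell to 0.569 ± 0.0490 CPM in edited against 1.84 ± 0.211 CPM in control KOPN-8 (SD, n = 3 each; -1.66). This is a low level, and the gene had 3 counts in each 697 group. TMEM86A passed the filter on low counts only through control KOPN-8, where it was high. The direction of its call was thus set in advance, and it is counted among the route genes called lower. CEPT1, which adds choline or ethanolamine head groups, fell by 0.30 on the log2 scale. ETNK1, an ethanolamine kinase gene, rose by 0.27, a call lost without control KOPN-8 replicates 2 or 3, at an adjusted p of 0.0609 and 0.0569.

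The remaining 3 route genes were named after their values were seen. TMEM189, the symbol in the table for PEDS1, the desaturase that makes the vinyl ether bond of plasmalogens, averaged 24.7 ± 1.47 CPM in edited and 20.2 ± 0.400 CPM in control KOPN-8 (SD, n = 3 each; log2 fold change 0.29; edgeR quasi-likelihood with Benjamini-Hochberg adjusted p = 0.0195). It overlaps a readthrough gene, TMEM189-UBE2V1, so its counts are uncertain. DHRS7B, which reduces the product of AGPS, fell by 0.37 on the log2 scale (adjusted p = 0.0411), though its groups overlapped. CHPT1, which adds choline head groups, fell by 0.29 (adjusted p = 0.0196). The TMEM189 call was lost without control KOPN-8 replicates 2 or 3 or edited KOPN-8 replicates 1 or 3, at an adjusted p of 0.0652 to 0.0701. That of CHPT1 was lost without control KOPN-8 replicate 2 or edited KOPN-8 replicates 1 or 2, at 0.0501 to 0.172. That of DHRS7B was lost without control 697 replicate 3, edited 697 replicate 2, control KOPN-8 replicates 1 or 2 or edited KOPN-8 replicates 1 or 3, at 0.0573 to 0.220, and without the filter, at 0.0835, and by DESeq2, at 0.0606.

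Of 15 other peroxins, which build the peroxisome and import its proteins, 12 were tested. In edited 697 0 rose, 0 fell and 12 were not called by edgeR, where 9.45% of all genes were called. The median was 0.20 against 0.00 over all genes. In edited KOPN-8 0 rose, 3 fell and 9 were not called, with a median of -0.17. Over all genes 11.5% were called higher there and 17.2% lower. PEX2, a ubiquitin ligase of the import machinery, averaged 54.4 ± 2.70 CPM in edited and 82.6 ± 1.45 CPM in control KOPN-8 (SD, n = 3 each; log2 fold change -0.60). PEX19, a chaperone for peroxisomal membrane proteins, fell by 0.32 on the log2 scale. PEX13, of the docking complex, fell by 0.29, a call lost without control KOPN-8 replicate 1 or edited KOPN-8 replicates 1 or 3, at an adjusted p of 0.0516 to 0.0641, and without the filter, at 0.0564. PEX2 lies on chromosome 8, where 301 of 512 genes tested were lower in edited KOPN-8 and 25 higher, with a median of -0.52. The part of that in the PEX2 change was not tested.

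Of 24 genes listed for peroxisomal enzymes of fatty acid handling and other matrix proteins, 22 were tested. In edited KOPN-8 1 rose, 9 fell and 12 were not called, where 11.5% of all genes were called higher and 17.2% lower, with a median of -0.23 against 0.00 over all genes. ECI2, an enoyl-CoA isomerase, fell to 25.3 ± 1.05 CPM in edited, against 56.8 ± 2.33 CPM in control KOPN-8 (SD, n = 3 each; log2 fold change -1.17; edgeR quasi-likelihood with Benjamini-Hochberg adjusted p = 3.23e-11). ABCD2, a fatty acid transporter (-1.77), PHYH, which starts the breakdown of phytanic acid (-0.72), and catalase, CAT (-0.54), fell too. PHYH, like AGPS, enters the peroxisome through PEX7. ACAA1, a thiolase that also uses PEX7, was the gene that rose (0.30; adjusted p = 0.0033) and was named after its value was seen. In edited 697 0 of the 22 rose, 1 fell and 21 were not called, where 9.45% of all genes were called, with a median of 0.04. TYSND1, a processing protease, fell by 0.29 in 697, a call lost without control 697 replicates 1 or 2 or edited 697 replicates 2 or 3, at an adjusted p of 0.0539 to 0.109, and in a fit of the 697 libraries alone, at 0.0673.

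**Figure D4:**
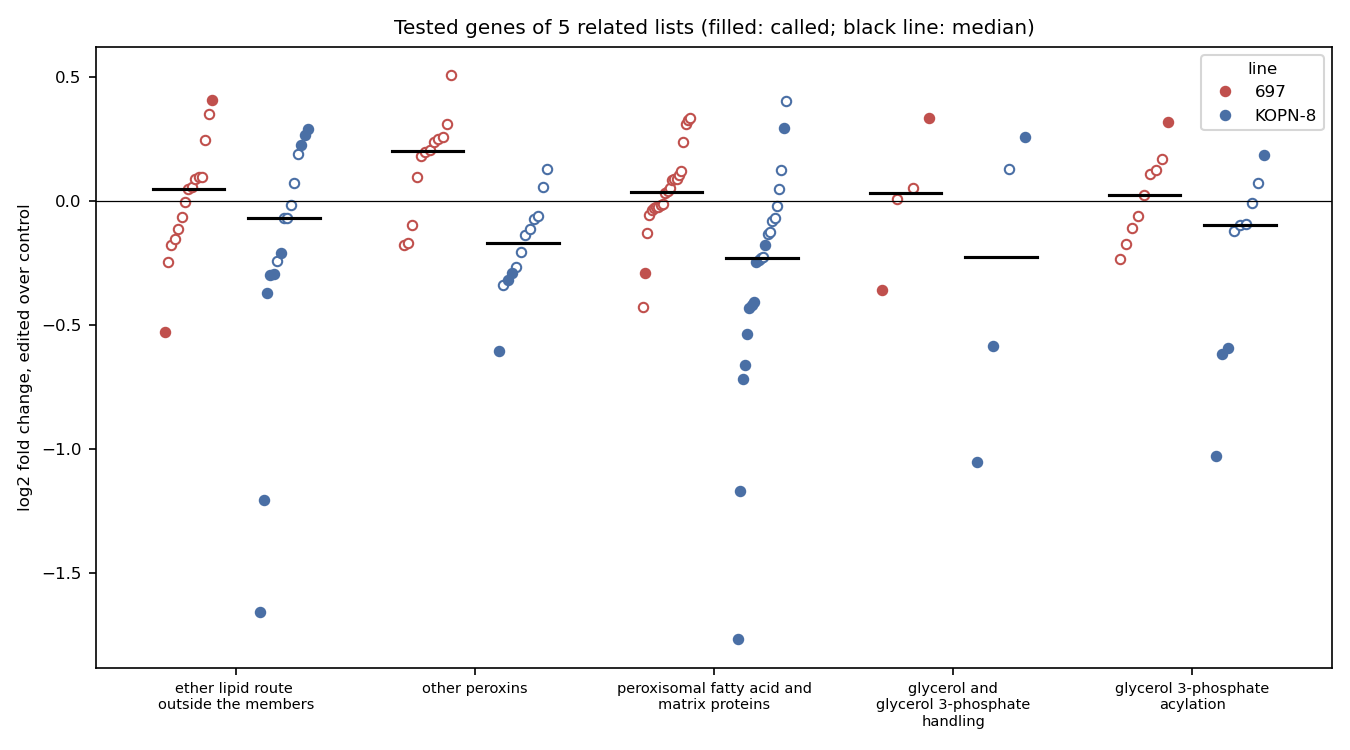
Log2 fold change of edited over control (y axis) for each tested gene of 5 lists (x axis), in 697 (red) and KOPN-8 (blue), with filled dots for called genes and a black line at the median. In 697 filled dots are few, and in KOPN-8 most filled dots lie below 0, down to -1.77 for ABCD2.

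Glycerol 3-phosphate is also made from dihydroxyacetone phosphate by dehydrogenases, apart from glycerol kinase. Of 11 genes listed for handling it and glycerol, only 4 were tested, and the aquaporins of the list, which carry glycerol, did not pass the filter. In edited 697 1 rose, 1 fell and 2 were not called (median 0.03), where 9.45% of all genes were called. In edited KOPN-8 1 rose, 2 fell and 1 was not called (median -0.23), where 28.7% of all genes were called. GPD2, the mitochondrial dehydrogenase that oxidises glycerol 3-phosphate, fell to 38.5 ± 2.27 CPM in edited, against 79.9 ± 1.17 CPM in control KOPN-8 (SD, n = 3 each; log2 fold change -1.05; edgeR quasi-likelihood with Benjamini-Hochberg adjusted p = 6.35e-11). In 697 GPD2 averaged 78.0 ± 4.74 CPM in edited and 75.3 ± 3.84 CPM in control libraries (SD, n = 3 each).

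GPD1L, a cytosolic glycerol 3-phosphate dehydrogenase, and PGP, a phosphatase that can release glycerol from it, were called in opposite directions in the lines. GPD1L averaged 66.8 ± 5.95 CPM in edited and 53.0 ± 6.38 CPM in control 697, and 29.2 ± 2.19 CPM in edited and 43.7 ± 0.884 CPM in control KOPN-8 (SD, n = 3 each). Its log2 fold changes were 0.33 and -0.58, and their difference, KOPN-8 minus 697, was -0.92 (edgeR quasi-likelihood with Benjamini-Hochberg adjusted p = 8.85e-06). PGP had -0.36 in 697 and 0.26 in KOPN-8, with a difference of 0.62 (adjusted p = 0.00128). Both differences held with each library left out. The GPD1L call in 697 was lost without control 697 replicates 2 or 3 or edited 697 replicates 1 or 3, at an adjusted p of 0.0545 to 0.0906. For PGP the 697 call was lost without control 697 replicate 3 or edited 697 replicate 3, at 0.0812 and 0.125, and the KOPN-8 call without control KOPN-8 replicates 1 or 2 or edited KOPN-8 replicates 1 or 3, at 0.0536 to 0.162. Fitted on the 697 libraries alone, neither 697 call was made, at 0.0626 and 0.0792. With PCYT2 and LPCAT1 these were the 4 listed genes called in opposite directions.

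The competing use of glycerol 3-phosphate, its acylation into ester-linked lipids, was tested for 9 of 12 listed genes. In edited 697 1 rose, 0 fell and 8 were not called (median 0.02), where 9.45% of all genes were called. In edited KOPN-8 1 rose, 3 fell and 5 were not called (median -0.09), where 28.7% of all genes were called. The median over all genes was 0.00 in both lines. AGPAT3, which acylates lysophosphatidic acid, fell to 38.1 ± 6.44 CPM in edited, against 77.9 ± 3.89 CPM in control KOPN-8 (SD, n = 3 each; log2 fold change -1.03; edgeR quasi-likelihood with Benjamini-Hochberg adjusted p = 2.50e-09). GPAT4 (-0.61) and AGPAT5 (-0.59) fell as well and lie on chromosome 8, whose median is given above and whose part in them was not tested. LPIN1, a phosphatidic acid phosphatase gene, rose by 0.19, a call lost when any of the 6 KOPN-8 libraries was left out, at an adjusted p of 0.0602 to 0.185. GPAM, the mitochondrial acyltransferase, rose by 0.32 in edited 697, a call lost when any of 8 libraries was left out, at 0.0512 to 0.197: control 697 replicates 2 and 3 and the 3 edited 697 and 3 control KOPN-8 libraries. A fit of the 697 libraries alone gave 0.0990.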

How the data were processed

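Read counts as the authors deposited them, whole numbers for each gene symbol, were taken for the 12 libraries. Per the labels' protocols the libraries were stranded and poly-A selected, and per the submitters' processing notes Trimmomatic, STAR, DESeq2 and the hg19 build were used. The sources used here name no version, counter, annotation or strand of counting. A deposited normalized table was not used.

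The model was edgeR 4.0.16 under R 4.3.3, with TMM scaling, the filterByExpr filter (minimum count 10) and a robust quasi-likelihood test over all 12 libraries, 1 mean per group, leaving 15218 genes with at least 99.88% of each library's counts. Benjamini-Hochberg adjustment ran over all of these genes, and called means an adjusted p under 0.05. Intervals of 95% use the standard error and degrees of freedom of the fit. CPM use TMM-scaled library sizes. Chi-square per degree of freedom between replicates was 2.91 to 10.7, beyond counting noise. Scripts were tested on simulated data. GENCODE v29 (GRCh38) gave only gene order, overlaps, chromosomes and exon lengths, and RefSeq gave the promoter for 8 of the 9 genes. The table of names matched PEDS1 to TMEM189 and GK3 to GK3P.

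Deviations from the group means of same-numbered libraries correlated at r = 0.105, 0.207 and 0.104 in 697, taken as paired on this evidence, and at 0.0508, 0.0362 and 0.0743 in KOPN-8, not taken so. The main fit is unpaired, so the p-values and the share of genes called in 697 leave this pairing out. With it 2319 genes were called in 697, against 1438 in the main fit. Alternatives were RLE and upper-quartile scaling, no filter, only the libraries compared, DESeq2 1.42.0, the replicate block and each library left out.

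Members and lists were chosen with earlier results of these data known. Named beside members were SETD2, neighbours that were called, switched or adjacent, the 5 genes most alike (1 is not reported here), up to 4 called genes with the smallest p per list and line, and listed genes called in opposite directions in the lines.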

Additional observations from a re-analysis of the deposited data

Results flagged for a closer look

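These results differ between the lines. The AGPS change in KOPN-8 minus that in 697 was -6.64 on the log2 scale, and GK5 moved in opposite directions, with a control level 191 times the edited level in 697 and an edited level at least 128-fold higher than control in KOPN-8. Both genes were chosen for these values, and the differences between the lines were not tested. PEX5 differed by 0.33 (edgeR quasi-likelihood with Benjamini-Hochberg adjusted p = 0.0476), a call lost with any of 9 of the 12 libraries left out, at 0.0509 to 0.122, and without the filter on low counts, at 0.0559. PCYT2 differed by 0.75 and PGP by 0.62, with the KOPN-8 change above the 697 change, and LPCAT1 by -0.62 and GPD1L by -0.92, with it below (adjusted p from 8.85e-06 to 0.00128).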

How the results depend on the processing

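With the replicate block, which pairs same-numbered libraries, 2319 genes were called in 697, against 1438 without it. The block was not run for the baseline comparison, and the line difference needs all libraries. Among named genes the block changed no call but that of SELENOI in KOPN-8. Leaving out 1 library at a time gave 1061 to 1485 calls in 697, 3422 to 4612 in KOPN-8, 2440 to 3101 for the line difference and 10644 to 11532 at baseline.

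GNPAT in KOPN-8, near 0 at -0.01, turned to 0.0011 with RLE scaling, 0.0111 with upper-quartile scaling, 0.0084 without the filter, 0.0033 on the KOPN-8 libraries alone and 0.0009 by DESeq2, and ran from -0.0344 to 0.0391 with single libraries left out. Other changes that were not called and turned sign with 1 library left out ran from -0.2195 to 0.0271 for FAR1 in 697, -0.1249 to 0.0123 for SELENOI in 697, -0.0289 to 0.1683 for GK in 697, -0.1146 to 0.0011 for GK in KOPN-8 and -0.0008 to 0.1416 for PEX7 in KOPN-8. Those of the line difference ran from -0.2138 to 0.0732 for PEX7 and -1.4315 to 0.8649 for FAR2. Among neighbours in 697, NFE2L2 ran from -0.095 to 0.1652 and XRN1 from -0.0693 to 0.081. The cause was not tested. FAR1's line difference was called without control 697 replicate 2 (0.35, adjusted p = 0.0158).

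Over all alternatives, with those above included, 580 values of members kept direction and call and 16 moved by more than 1 SD. Another 10 lost a call, 4 gained one and 19 turned sign. For other named genes 913 values kept direction and call, 84 lost a call and 4 turned sign. FAR2 in KOPN-8, with 3 counts in all, is limited by depth.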

Other observations

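At baseline 73.3% of all genes were called between the control groups of the lines by edgeR, 36.6% higher in control KOPN-8 and 36.7% lower. Of 15 further ether lipid route genes tested, 10 were higher in control KOPN-8 than in control 697 and 3 lower (median log2 fold change 0.46), and of 12 other peroxins 5 were higher and 1 lower (0.16). Of 22 peroxisomal enzymes and matrix proteins 9 were higher and 6 lower (0.11), and of 9 genes of glycerol 3-phosphate acylation 5 were higher and 3 lower (0.33). Of 4 genes of glycerol and glycerol 3-phosphate handling 1 was higher and 1 lower (0.10). Whether any list differed from the other genes was not tested. The median over all genes was -0.01.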
